A study of Mus musculus with 6 samples.

Results

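The circadian clock genes Per1, Per2, Cry1, Cry2, Clock, Arntl, Nr1d1, Nr1d2 and Dbp were followed in cultured mouse fetal liver macrophages. Members were found by their symbol in the deposited expression table, in which each of the 9 had a row among 16111 genes. All 9 passed the filter on low counts, which 11408 genes passed. The set was proposed with the genotype difference of these genes in view, so its values are given as a description and nothing is supported with them.

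The study compared wild-type cells with cells deficient in Ahrr, whose product represses AhR, the aryl hydrocarbon receptor, a transcription factor switched on by ligands. The cells came from livers of E13.5 fetuses (E for embryonic day) of the C57BL/6 RCC strain, wild-type (WT) or AhRR-/-, and each genotype had 3 libraries from mice numbered 1 to 3. Both genotypes were held for 5 weeks in RPMI with 2% of the macrophage growth factor GM-CSF, after which the non-adherent cells were taken. The labels used here give no AhR ligand, no hour of harvest and no treatment that sets cells to a common clock phase, and they do not say which exons the Ahrr allele lacks. Each library is therefore a single snapshot at an hour not given in the sources used here. A difference of clock genes between genotypes cannot be told apart from a difference of clock phase at harvest.

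The clock is a feedback loop of transcription. CLOCK and ARNTL (also called BMAL1) bind E-boxes as a pair and switch on the Per, Cry and Nr1d genes and Dbp, and PER and CRY proteins then return to the nucleus and hold the pair back. REV-ERB proteins, encoded by Nr1d1 and Nr1d2, repress Arntl through ROR elements, while DBP activates genes that carry D-boxes. In macrophages the loop is known for its daily control of cytokine and chemokine genes, and Per1 is also an early gene of glucocorticoid and cAMP signals.

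The promoters of 4 members are shown as examples that carry motifs of these proteins. Cry2, whose window also carries such motifs, is not shown. Each sequence is the 250 bases before the start site in RefSeq (GRCm38.p6), read along the strand of the gene. Capitals mark matches, on either strand, to an E-box (CACGTG), an E′-box (CACGTT), a ROR element (TNGGTCA) or a xenobiotic response element (XRE, TNGCGTG), the motif of AhR with its partner ARNT. No 2 of the marked matches overlapped. The Per1 window lies at chr11:69098699-69098948 on the plus strand, that of Cry1 at chr10:85185055-85185304 on the minus strand, that of Nr1d1 at chr11:98775378-98775627 on the minus strand and that of Arntl at chr7:113207215-113207464 on the plus strand.
Per1: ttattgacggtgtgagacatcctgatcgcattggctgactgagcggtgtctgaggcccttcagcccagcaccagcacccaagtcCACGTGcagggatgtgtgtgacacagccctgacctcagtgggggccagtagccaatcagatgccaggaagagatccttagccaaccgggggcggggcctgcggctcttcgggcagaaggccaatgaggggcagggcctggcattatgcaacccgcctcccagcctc
Cry1: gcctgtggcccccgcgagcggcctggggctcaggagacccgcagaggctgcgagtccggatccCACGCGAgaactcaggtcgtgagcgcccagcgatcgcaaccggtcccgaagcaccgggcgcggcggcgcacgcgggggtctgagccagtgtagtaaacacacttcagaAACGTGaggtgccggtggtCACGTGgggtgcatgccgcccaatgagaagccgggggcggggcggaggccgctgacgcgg
Nr1d1: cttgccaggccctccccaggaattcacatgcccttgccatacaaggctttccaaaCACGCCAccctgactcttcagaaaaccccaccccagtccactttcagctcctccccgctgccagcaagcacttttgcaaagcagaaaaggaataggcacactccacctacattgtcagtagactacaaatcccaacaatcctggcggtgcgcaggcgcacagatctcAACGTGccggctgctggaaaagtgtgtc
Arntl: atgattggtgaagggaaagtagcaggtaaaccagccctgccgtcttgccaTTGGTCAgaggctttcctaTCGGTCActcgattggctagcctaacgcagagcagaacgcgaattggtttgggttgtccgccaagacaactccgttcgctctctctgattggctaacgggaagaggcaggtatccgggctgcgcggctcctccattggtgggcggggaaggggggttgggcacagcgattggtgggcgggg
Per1 held an E-box from base -166 to -161, counted back from the start site. Cry1 held an E-box from -60 to -55, an E′-box from -79 to -74 and an XRE from -187 to -181. Nr1d1 held an E′-box from -28 to -23 and an XRE from -195 to -189. The Arntl window had a pair of ROR elements, from -200 to -194 and from -181 to -175.

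Of the 9 members, 8 had a promoter in the table, and Per2 is named only. Among these 8, E-boxes occurred in 2, against 6.04% of all 27025 promoters, and E′-boxes in 3, against 3.93%. ROR elements occurred in 2 members, Arntl and Cry2, against 9.17% of all promoters. XREs were in 2 members, Cry1 and Nr1d1, against 4.19%. No member window held a D-box (TTATGTAA, 0.862% of all promoters) or a cAMP response element (TGACGTCA, 1.6%), and the Clock, Nr1d2 and Dbp windows held none of the 6 motifs. A match describes the letters of the window and is not a measured binding site.

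The 6 libraries held between 3556106 and 41668336 counts, with the smallest total in Ahrr-deficient replicate 1. WT replicate 2 stood apart in the ribosomal RNA gene CT010467.1, which took 5.28% of its counts and at most 0.0679% in the other libraries. The targeted gene Ahrr had 101, 27 and 38 counts in WT replicates 1, 2 and 3 (4.605, 4.29 and 5.33 CPM, counts per 1000000 counts) and 8, 107 and 12 counts in the Ahrr-deficient libraries (2.25, 2.57 and 1.21 CPM). The change was -1.21 on the log2 scale (SE 0.26; edgeR adjusted p 0.0151). This call was lost without WT replicate 1 (-1.29, adjusted p 0.0631) or WT replicate 3 (-1.18, adjusted p 0.0502), and after thinning to the smallest total (-1.04, adjusted p 0.109). All 10 macrophage markers had a row, with a summed level of 4170 to 4443 CPM in WT and 3415 to 3673 CPM in Ahrr-deficient libraries. They did not move one way, as Csf1r was called lower (log2 fold change -0.65) and Itgax (1.70) and Pparg (0.64) higher, and the other 7 were not called. The Csf1r call was lost without any 1 library other than Ahrr-deficient replicate 1 (-0.69 to -0.51). Of 5 dendritic cell markers 3 had a row, with none for Flt3 and Ccr7, and their sum was 57.6 to 62.1 CPM in WT and 72.0 to 93.2 CPM in Ahrr-deficient libraries. Clec9a, which made up most of this sum, was called higher (0.49), whereas Zbtb46 had a log2 fold change of -0.32 and was not called, and Xcr1 was not tested. The Clec9a call was lost without WT replicate 1 (0.50), WT replicate 2 (0.55), WT replicate 3 (0.41) or Ahrr-deficient replicate 2 (0.42) and after thinning (0.42). Mast cell and lymphoid markers had no row, and the neutrophil, erythroid, hepatocyte and fibroblast sums did not exceed 9.69 CPM in any library. The part of these differences in the clock gene values was not tested.

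Levels were compared between genes as reads per kilobase of exon and 1000000 counts (RPKM). Per1 stood far above the other members in WT cells, at 52.3 ± 5.59 RPKM (SD, n = 3), at percentile 93.5 of tested genes. Nr1d2 followed with 6.89 ± 1.06 RPKM, then Cry1 with 4.73 ± 0.355, Clock with 4.50 ± 0.274, Dbp with 3.49 ± 0.771, Nr1d1 with 3.11 ± 0.636 and Per2 with 3.10 ± 0.266 RPKM. Arntl (1.78 ± 0.112) and Cry2 (1.51 ± 0.236) were the lowest. The ranges of mean ± SD overlapped for Cry1 and Clock, for Clock and Dbp, for Dbp, Nr1d1 and Per2, and for Arntl and Cry2, so the order within these neighbours is not resolved.

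In Ahrr-deficient cells Per1 was again first, at 28.9 ± 0.729 RPKM (SD, n = 3). Cry1 came next with 8.05 ± 0.783 RPKM, followed by Nr1d2 (5.82 ± 1.32), Per2 (5.38 ± 2.21) and Clock (5.19 ± 0.479), whose ranges overlapped, and that of Per2 also reached into that of Cry1. Arntl had 2.14 ± 0.223 RPKM. The last places went to Nr1d1 (1.38 ± 0.297), Cry2 (1.12 ± 0.104) and Dbp (1.07 ± 0.297), which also overlapped. Dbp thus stood at percentile 36.2 of tested genes in WT and 12.9 in Ahrr-deficient cells, and Nr1d1 at percentile 33.3 and 16.4.

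**Figure D1:**
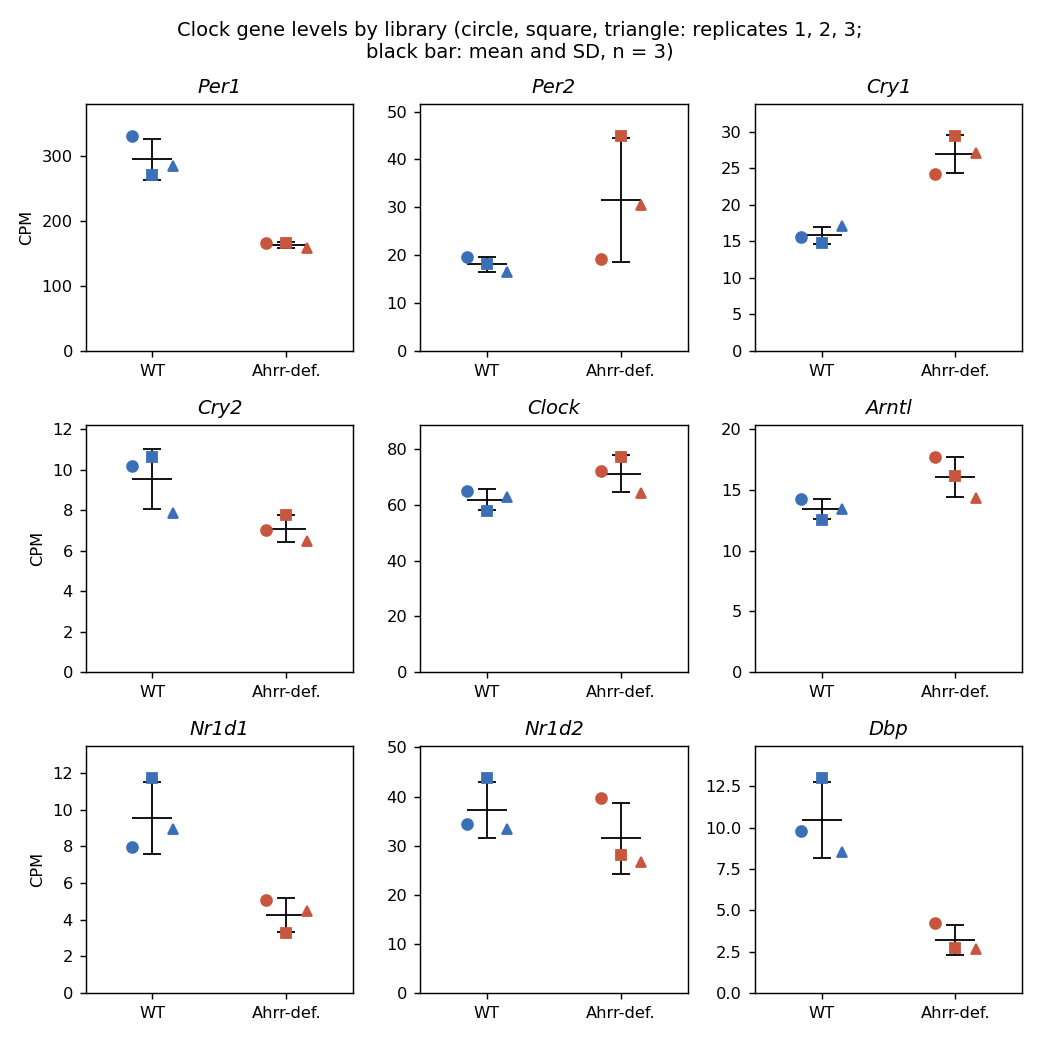
Level of each clock gene in CPM (vertical axis, from 0) in the 3 WT and 3 Ahrr-deficient (Ahrr-def.) libraries, with 1 symbol shape per replicate and a black bar for the mean and SD. Per1, Nr1d1 and Dbp lie lower in all 3 Ahrr-deficient libraries and Cry1 lies higher, while Per2 spreads from 19.1 to 44.9 CPM within the Ahrr-deficient group.

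Among the repressors, the Period gene Per1 (ENSMUSG00000020893.17, protein-coding, chr11:69095217-69109960, plus strand) had 330, 270 and 284 CPM in WT replicates 1, 2 and 3. Gene coordinates are those of GENCODE mouse release 21 (GRCm38), which starts Per1 upstream of the RefSeq start used for its promoter. Its level in Ahrr-deficient cells was 165, 165 and 158 CPM. The 3 Ahrr-deficient libraries lay close together, and all were lower than every WT library. The log2 fold change, Ahrr-deficient over WT, was -0.93 (SE 0.09), a level 1.91-fold lower. In bulk RNA, fewer cells that express a gene and less RNA per cell cannot be told apart.

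Per2 (ENSMUSG00000055866.9, chr1:91415982-91459324, minus strand), the paralog of Per1, had 19.6, 18.3 and 16.5 CPM in WT and 19.1, 44.9 and 30.4 CPM in Ahrr-deficient libraries, in replicate order. Ahrr-deficient replicate 1 lay within the WT range and the other two lay higher, so the groups overlapped. The log2 fold change was 0.80 (SE 0.24). It was just inside the threshold of 0.05 on the adjusted p, and it fell outside without WT replicate 1 (0.83), WT replicate 2 (0.83), WT replicate 3 (0.69), Ahrr-deficient replicate 2 (0.43) or Ahrr-deficient replicate 3 (0.84). It also fell outside with upper-quartile factors (0.76), a mean of at least 50 counts (0.78), the replicate block (0.67) and thinning to the smallest total (0.67). The opposite signs of Per1 and Per2 were present in every alternative that was run. The alternatives reuse the same libraries, so the kept sign does not establish the direction of Per2.

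Cry1 (ENSMUSG00000020038.10, chr10:85131700-85185064, minus strand) encodes a cryptochrome, the partner of the PER proteins in holding back CLOCK and ARNTL. Its level was 15.5, 14.8 and 17.1 CPM in WT and 24.2, 29.4 and 27.1 CPM in Ahrr-deficient replicates. Every Ahrr-deficient library lay above every WT library. It was 1.65-fold higher, a log2 fold change of 0.72 (SE 0.10).

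Its paralog Cry2 (ENSMUSG00000068742.11, chr2:92403646-92434043, minus strand) had 10.2, 10.6 and 7.85 CPM in WT and 7.03, 7.78 and 6.47 CPM in Ahrr-deficient libraries. The groups did not overlap, but the lowest WT library was only slightly higher than the highest Ahrr-deficient library. The log2 fold change of -0.49 (SE 0.18) did not pass the threshold. Ahrr-deficient replicate 1 held 25 counts of Cry2, with a 95% Poisson interval of 4.55 to 10.4 CPM that covers WT replicates 1 and 3. Of the 6320 exonic bases of Cry2, 295 are shared with D930015M05Rik on the opposite strand, a gene with no more than 0.635 CPM in any library.

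The activators differed least. Clock (ENSMUSG00000029238.11, chr5:76209868-76304792, minus strand) had 65.0, 57.6 and 62.8 CPM in WT and 72.3, 77.2 and 64.2 CPM in Ahrr-deficient cells. The groups overlapped. Its log2 fold change was 0.13 (SE 0.09). Arntl (ENSMUSG00000055116.8, chr7:113207465-113314126, plus strand) had 14.2, 12.5 and 13.45 CPM in WT and 17.7, 16.1 and 14.4 CPM in Ahrr-deficient cells. On the CPM scale the lowest Ahrr-deficient library was marginally higher than the highest WT library, whereas on the scale of the deposited normalised signal the groups overlapped. Arntl had a log2 fold change of 0.16 (SE 0.12), and of -0.0018 when all libraries were thinned to the smallest total. Neither gene passed the threshold in any of the 15 alternatives. Of the 7523 exonic bases of Arntl, 33 are shared with Gm45355 on the opposite strand.

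Nr1d1 (ENSMUSG00000020889.11, chr11:98767932-98775333, minus strand), which encodes REV-ERB alpha, had 7.98, 11.8 and 8.97 CPM in WT libraries. Its Ahrr-deficient values were 5.06, 3.26 and 4.45 CPM, all lower than the WT values. The log2 fold change was -1.34 (SE 0.25), or 2.53-fold lower, and without Ahrr-deficient replicate 2, the most deeply sequenced library, it was -1.07 and fell outside the threshold. Ahrr-deficient replicate 1 rested on 18 counts, with a 95% Poisson interval of 3.001 to 8.002 CPM.

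The last exons of Nr1d1 overlap those of Thra, a thyroid hormone receptor gene on the opposite strand, over 263 of 3077 exonic bases (8.55%). Thra had 28.3, 26.7 and 30.3 CPM in WT and 18.3, 14.9 and 15.98 CPM in Ahrr-deficient libraries (-0.91 on the log2 scale, SE 0.11, edgeR adjusted p 0.00228). The TruSeq RNA v2 kit does not mark strand, so reads of the shared bases cannot be assigned to one of the genes. How much of the Nr1d1 value they make up was not tested.

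Nr1d2 (ENSMUSG00000021775.11, chr14:18204054-18239127, minus strand), the gene of REV-ERB beta, had 34.5, 43.8 and 33.5 CPM in WT and 39.7, 28.1 and 26.6 CPM in Ahrr-deficient replicates. Ahrr-deficient replicate 1 lay among the WT libraries and the groups overlapped. The log2 fold change was -0.36 (SE 0.19) and did not pass the threshold, which it passed without Ahrr-deficient replicate 1 (-0.52). It also passed without both WT replicate 2 and Ahrr-deficient replicate 1, at -0.34.

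Dbp (ENSMUSG00000059824.12, chr7:45705088-45710203, plus strand), a PAR bZIP factor and the output arm of the loop, had the largest difference of the 9. Its level was 9.80, 13.0 and 8.55 CPM in WT and 4.22, 2.74 and 2.63 CPM in Ahrr-deficient replicates. The lowest WT library was higher than the highest Ahrr-deficient library. Dbp was 3.76-fold lower, a log2 fold change of -1.91 (SE 0.25). The shallowest library, Ahrr-deficient replicate 1, held 15 counts of Dbp, with a 95% Poisson interval of 2.36 to 6.96 CPM, and 3 counts, the floor of detection, were 0.844 CPM there. Dbp shares 539 of its 2993 exonic bases (18.0%) with Sphk2 on the opposite strand. Sphk2 had 62.5, 57.0 and 61.5 CPM in WT and 48.4, 68.8 and 62.8 CPM in Ahrr-deficient libraries, a difference of -0.06 on the log2 scale (edgeR adjusted p 0.747). As for Nr1d1 and Thra, reads of the shared bases cannot be assigned to one of the genes. How much of the Dbp value they make up was not tested.

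In all, 5 of the 9 members were past the adjusted threshold of 0.05, as were 19.6% of all tested genes. Of these, Per1, Nr1d1 and Dbp were lower, as were 9.95% of all tested genes, and Per2 and Cry1 were higher, as were 9.62%. The 4 others were Cry2, Clock, Arntl and Nr1d2. In CPM the groups did not overlap for 6 members, as for 36.6% of tested genes. Arntl, among these 6, overlapped on the deposited normalised signal. Because the genotype contrast was in view when the set was chosen, these counts are not a result about the members. The median log2 fold change of the 9 was -0.36, beside 0.01 over all tested genes. Per1, Cry1 and Dbp stayed inside the threshold in each of the 15 alternatives.

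Ratios between paralogs, taken per kilobase of exon within a library, are free of differences in total count between libraries. The ratio of Per1 to Per2 was 17.5, 15.4 and 17.9 in WT and 8.98, 3.83 and 5.40 in Ahrr-deficient replicates 1, 2 and 3. Cry1 exceeded Cry2 by a factor of 2.89, 2.63 and 4.12 in WT and of 6.51, 7.15 and 7.92 in Ahrr-deficient libraries. For Nr1d1 over Nr1d2 the values were 0.407, 0.471 and 0.471 in WT and 0.224, 0.204 and 0.294 in Ahrr-deficient libraries. In all 3 paralog pairs the WT and Ahrr-deficient ratios did not overlap, and Nr1d2 outweighed Nr1d1 in every library. Each pair holds a gene past the threshold, and 36.6% of single tested genes did not overlap in CPM. The share of other gene pairs that separate was not computed, so the count is a description only.

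The balance of outputs to activator was set out in the same way. Nr1d1 over Arntl was 1.37, 2.29 and 1.63 in WT and 0.699, 0.496 and 0.758 in Ahrr-deficient libraries. Dbp over Arntl was 1.73, 2.61 and 1.60 in WT and 0.598, 0.427 and 0.460 in Ahrr-deficient libraries. Per kilobase of exon, both outputs thus lay above Arntl in the 3 WT libraries and below it in the 3 Ahrr-deficient libraries. Which gene lies higher depends on the exon lengths used, 7523 bases for Arntl, 3077 for Nr1d1 and 2993 for Dbp. In CPM, Nr1d1 was below Arntl in every WT library and Dbp was above it only in WT replicate 2. Clock over Arntl stayed between 2.24 and 2.63 in all 6 libraries, and the groups overlapped (mean log2 ratio 1.34 ± 0.02 in WT and 1.28 ± 0.12 in Ahrr-deficient cells, SD, n = 3).

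**Figure D2:**
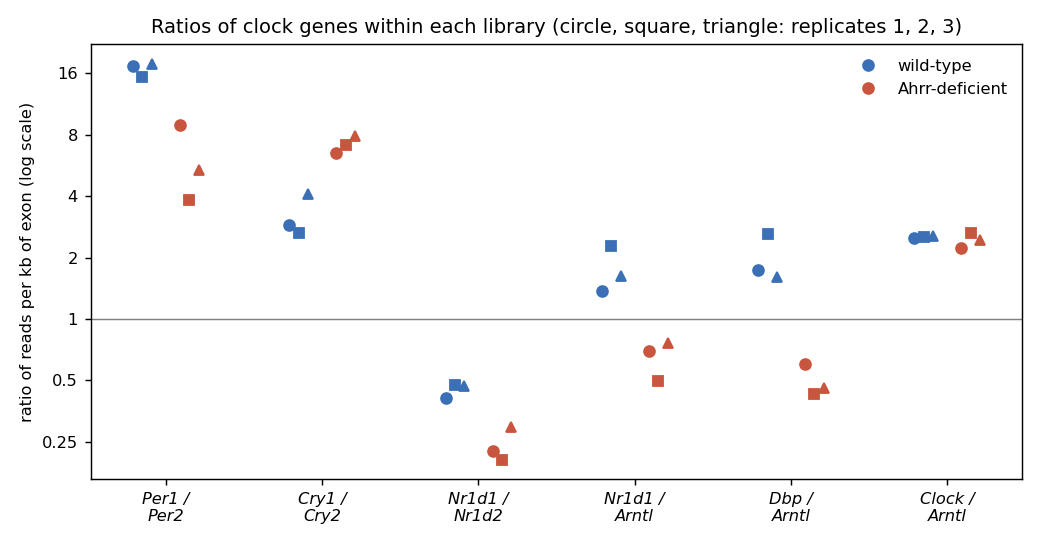
Ratios of clock genes in reads per kilobase of exon (vertical axis, log scale), with 1 point per library, blue for WT and red for Ahrr-deficient, and 1 symbol shape per replicate. The genotypes separate for 5 ratios, each with a gene past the threshold, and the share of other gene pairs that separate was not computed. Per kilobase of exon, Nr1d1 and Dbp cross the level of Arntl (the line at 1), a crossing that depends on the exon lengths used. Clock over Arntl lies at 2.24 to 2.63 in all libraries.

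Replicates of a genotype differed in a partly shared way. On TMM-scaled log2 CPM, WT replicate 2 was above its group mean in Nr1d1 by 0.42, in Nr1d2 by 0.35, in Dbp by 0.44 and in Cry2 by 0.27. Ahrr-deficient replicate 1 was above its group mean in the first 3 of these genes, by 0.29, 0.38 and 0.44. It was at the same time below its group in Per2, by 0.61, where Ahrr-deficient replicate 2 was above by 0.58. In Ahrr-deficient replicate 1, Nr1d1 and Dbp rested on 18 and 15 counts. Their 95% Poisson intervals there, 3.001 to 8.002 and 2.36 to 6.96 CPM, covered the values of the other Ahrr-deficient libraries. That of Nr1d2, 33.4 to 46.8 CPM, did not. Per1, Clock and Arntl deviated by no more than 0.17 in any library. WT replicate 2 is the library with the ribosomal RNA and Ahrr-deficient replicate 1 the shallowest. Without both, the log2 fold changes were -0.96 for Per1, 1.03 for Per2, 0.78 for Cry1, -1.23 for Nr1d1 and -1.82 for Dbp.

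**Figure D3:**
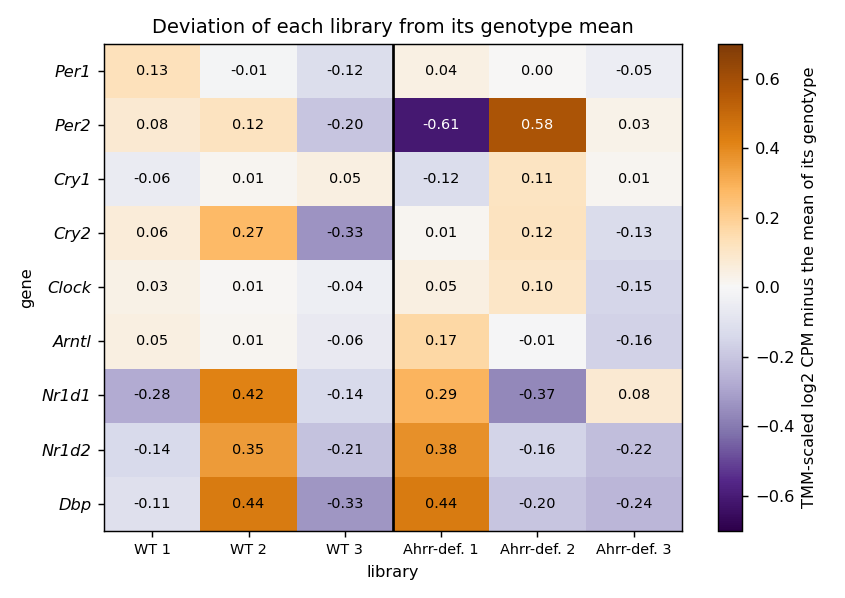
Deviation of each library (columns) from the mean of its genotype for each clock gene (rows), as TMM-scaled log2 CPM, with the value printed in each cell and the genotypes divided by a black line. Nr1d1, Nr1d2 and Dbp are high together in WT replicate 2 and Ahrr-deficient replicate 1, and Per2 runs from -0.61 to 0.58 within the Ahrr-deficient group. In Ahrr-deficient replicate 1, Nr1d1 and Dbp rest on 18 and 15 counts, and their deviations lie within counting error.

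The genes most like each member were those with the smallest root mean square distance between mean-centred log2 CPM profiles over the 6 libraries, among 10034 genes with a mean of at least 50 counts. Closest to Per1 were Natd1 (distance 0.07 in log2 units) and Grina (0.08). Hspa9, a mitochondrial chaperone gene, was closest to Per2 (0.06), with 346, 350 and 281 CPM in WT and 352, 771 and 544 CPM in Ahrr-deficient libraries, followed by Bcl2l1 (0.09). Cry1 was most like Ubash3b (0.04) and Dmd (0.04), and Cry2 most like Rnf213 (0.04) and Cebpzos (0.06). Clock ran closest to Ube2d2a (0.02) and Rheb (0.02), Arntl to Ppp6c (0.02) and Tmed5 (0.03), and Nr1d2 to Gm45221 (0.05) and E330009J07Rik (0.07).

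Distances were largest for the 2 members with the lowest counts. Nr1d1 was nearest to Bcl6 (0.12), a transcriptional repressor gene with 13.6, 25.1 and 16.8 CPM in WT and 9.56, 6.94 and 9.51 CPM in Ahrr-deficient libraries, and to Zmat1 (0.13). Dbp was nearest to Spata13 (0.12) and to Trem2 (0.13), a lipid-sensing receptor gene of macrophages. Trem2 had 123, 129 and 104 CPM in WT and 43.0, 32.6 and 31.2 CPM in Ahrr-deficient libraries. No member was among the 2 nearest genes of another member.

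Other genes of the clock were taken from 4 lists, of which 43 genes were tested. Of these, 14 passed the threshold, 5 higher and 9 lower, beside 19.6% of all tested genes, 9.62% higher and 9.95% lower, and the median log2 fold change of the 43 was -0.01. The nearest relatives of the members, further clock transcription factors and repressors, had 9 tested genes, of which 1 rose and 4 fell, with a median of -0.60. Bhlhe40, whose product DEC1 competes for E-boxes, had 255, 189 and 220 CPM in WT and 472, 714 and 670 CPM in Ahrr-deficient libraries and rose by 1.41 on the log2 scale (SE 0.16, edgeR adjusted p 0.00158). Nfil3, the repressor that competes with DBP for D-boxes, had 189, 175 and 129 CPM in WT and 82.7, 103 and 80.5 CPM in Ahrr-deficient libraries and fell by 0.96 (SE 0.17, edgeR adjusted p 0.00658). Both calls were kept in every alternative.

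The third Period gene, Per3, fell by 0.81 (edgeR adjusted p 0.00858), a call lost without WT replicate 1 (-0.78, adjusted p 0.0552). Its levels were 15.7, 16.04 and 12.6 CPM in WT and 9.28, 8.69 and 9.10 CPM in Ahrr-deficient libraries, so that Per1 and Per3 were lower and Per2 was not. Npas2, a paralog of Clock at no more than 1.75 CPM, fell by 1.58 (edgeR adjusted p 0.0151). It rested on 3, 18 and 6 counts in Ahrr-deficient replicates 1, 2 and 3, and 3 counts are the floor of detection. The Npas2 call was lost without WT replicate 1 (-1.69, adjusted p 0.0714), WT replicate 2 (-1.46, 0.0548) or Ahrr-deficient replicate 2 (-1.17, 0.137), in DESeq2 (-1.51, 0.0691) and with the replicate block (-1.58, 0.0624). Tef, a PAR bZIP factor like Dbp, fell by 0.60 (edgeR adjusted p 0.0296). Its call was lost without WT replicate 1 (-0.56, adjusted p 0.121), WT replicate 2 (-0.54, 0.097), Ahrr-deficient replicate 2 (-0.50, 0.108) or Ahrr-deficient replicate 3 (-0.52, 0.113), and after thinning (-0.42, 0.087).

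**Figure D4:**
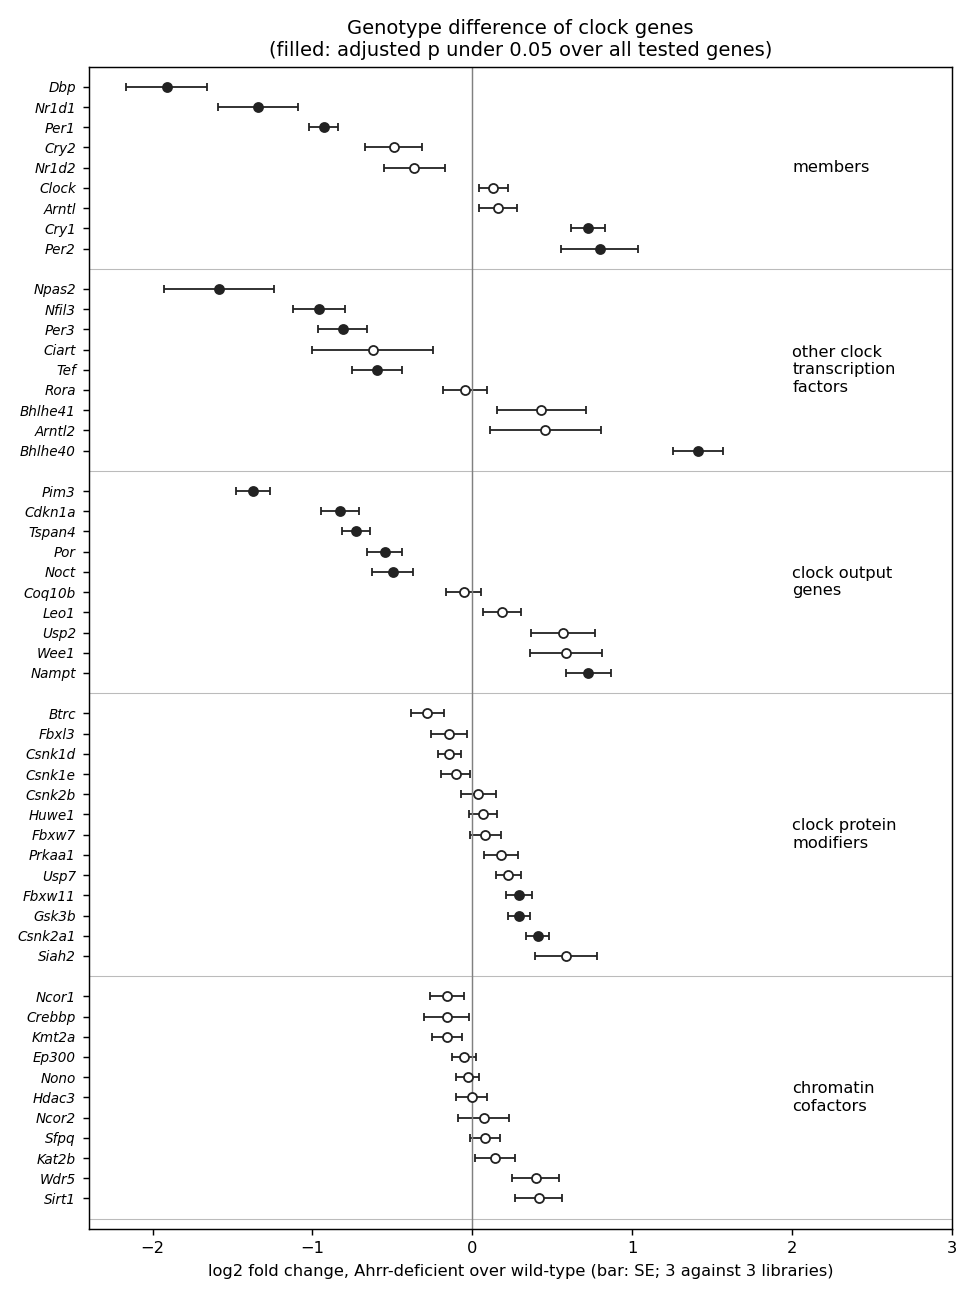
Log2 fold change, Ahrr-deficient over WT (horizontal axis), with its SE for the 9 members and 43 other clock genes, grouped by list, with filled points for an edgeR adjusted p under 0.05. Points spread from -1.91 (Dbp) to 1.41 (Bhlhe40) among members, transcription factors and outputs, and stay between -0.28 and 0.58 among protein modifiers and chromatin cofactors.

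Of 10 genes listed as outputs of the clock, 6 passed the threshold, 1 higher and 5 lower (median log2 fold change -0.28), beside the 19.6% of all tested genes. Pim3, a kinase gene, fell by 1.37 (SE 0.10, edgeR adjusted p 0.000659), from 223, 187 and 237 CPM in WT to 74.8, 87.1 and 99.3 CPM. Cdkn1a, the gene of the cell cycle inhibitor p21, fell by 0.83 (edgeR adjusted p 0.00374) and Tspan4 by 0.73 (edgeR adjusted p 0.00228). Nampt, the enzyme that sets the pace of NAD salvage, rose by 0.72 (edgeR adjusted p 0.0102), a call lost without WT replicate 1 (0.74, adjusted p 0.0501). Por, the electron donor of cytochrome P450 enzymes, fell by 0.55 (edgeR adjusted p 0.0110), which was lost without WT replicate 1 (-0.52, adjusted p 0.0632). Noct fell by 0.50 (edgeR adjusted p 0.0287) and lost its call without WT replicate 1 (-0.51), WT replicate 2 (-0.45), WT replicate 3 (-0.53), Ahrr-deficient replicate 2 (-0.39) or Ahrr-deficient replicate 3 (-0.48), with the replicate block (-0.48) and after thinning (-0.55).

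Of 13 tested genes of kinases, ubiquitin ligases and other enzymes that modify clock proteins, 3 passed, all higher, with a median log2 fold change of 0.08, beside 19.6% of all tested genes. These were the kinase genes Csnk2a1 (log2 fold change 0.41, edgeR adjusted p 0.00780) and Gsk3b (0.29, edgeR adjusted p 0.0203) and the ubiquitin ligase gene Fbxw11 (0.29, edgeR adjusted p 0.0329). Csnk2a1 lost its call without WT replicate 1 (0.39, adjusted p 0.064). Gsk3b lost its call without WT replicate 1 (0.29), WT replicate 2 (0.30), WT replicate 3 (0.28) or Ahrr-deficient replicate 2 (0.28), with the replicate block (0.29) and after thinning (0.26). Fbxw11 lost its call without WT replicate 1 (0.32), WT replicate 2 (0.30), WT replicate 3 (0.24), Ahrr-deficient replicate 2 (0.26) or Ahrr-deficient replicate 3 (0.30), in DESeq2 (0.29), with the replicate block (0.29) and after thinning (0.30). Siah2, a ubiquitin ligase gene, had a log2 fold change of 0.58 that did not pass, and passed in limma-voom (0.64, adjusted p 0.0334), without Ahrr-deficient replicate 1 (0.63, edgeR adjusted p 0.0368) and without both that library and WT replicate 2 (0.74, edgeR adjusted p 0.0281). None of the 11 chromatin cofactors, among them the corepressor gene Ncor1 through which REV-ERB proteins act, passed in edgeR, DESeq2 or limma-voom, and 2 had an unadjusted edgeR p under 0.05. Without Ahrr-deficient replicate 1, Ncor1 (-0.26, edgeR adjusted p 0.0316), Kmt2a (-0.25, 0.0165) and Wdr5 (0.52, 0.00295) passed.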

How the data were processed

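PolyA RNA of 6 cultures was measured, grouped by genotype from the sample titles. Per the labels' protocols, 100 ng RNA went into a TruSeq library, sequenced from one end over 75 bp. The submitters' processing notes name CASAVA 1.8.2, fastp 0.20.0, STAR 2.7.10b, SAMtools 1.16.1, R 4.3.1, DESeq2 1.40.2 and the mm10 build. The counting program, the annotation and the use of strand are not given in the sources used here. The authors deposited raw read counts for 53465 features without identifiers, and a normalised signal with identifiers for 16111 genes with at least 10 counts in all. Each value of the deposited signal was a whole number of reads (100% of values, tolerance 0.001) after multiplication by the size factor of its library, and these reads equalled the raw counts, so they were tested as counts. Features without an identifier held 0.0232% to 0.0511% of a library and were left out of totals.

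Counts were tested with edgeR 4.0.16 (quasi-likelihood, TMM factors, filterByExpr, genotype as the only term, two-sided) in R 4.3.3, with Benjamini-Hochberg adjustment over 11408 genes and a threshold of 0.05. The biological coefficient of variation was 13.0%. CPM are counts per 1000000 identified counts, and RPKM divide CPM by the merged exon length in kilobases in GENCODE mouse release 21 (GRCm38), in which 16094 of 16111 identifiers were found. TMM-scaled log2 CPM used a prior count of 2. Poisson intervals and the floor of 3 counts cover counting error only, since reads carry no molecular identifiers. The scripts were tested on simulated data. Tables and plots used Python 3.11.15, pandas 2.3.3, SciPy 1.17.1 and matplotlib 3.10.9.

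The members and the gene lists were chosen with earlier results of these data known. All members are described. Of the other clock lists and the bHLH-PAS list, genes past the threshold are named, up to the 6 with the largest absolute log2 fold change, as are the 2 genes most like each member, Ahrr, and genes overlapping a member on the other strand. Ncor1, Kmt2a, Wdr5, Siah2, Arnt, the marker genes singled out and genes named from the lists of glucocorticoid, cAMP and REV-ERB genes were chosen after their values were seen. Alternatives were RLE and upper-quartile factors, no filter, only genes averaging 50 counts or more, DESeq2 1.42.0, voom in limma 3.58.1, a replicate block, thinning, and each library left out. Leaving out both WT replicate 2 and Ahrr-deficient replicate 1 was added after seeing the data. Replicates are different mice, and replicate libraries differed by more than sampling noise (chi-square per degree of freedom of at least 5.79).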

Additional observations from a re-analysis of the deposited data

How the results depend on the processing

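The number of genes that differed between the genotypes, 2232, was 1390 with the replicate number as a block, 1214 with all libraries thinned to the smallest total, and between 694 (without WT replicate 1) and 3858 (without Ahrr-deficient replicate 1) with a library left out. The count of clock genes of the core set past the threshold, 5, lay between 3 (without Ahrr-deficient replicate 2) and 6 (without Ahrr-deficient replicate 1), and was 4 with the block. The count of other clock genes, 14, was 9 after thinning, 10 with the block, and between 5 (without WT replicate 1) and 20 (without Ahrr-deficient replicate 1) with a library left out. The cause of these shifts was not tested, except that thinning leaves fewer counts and leaving out a library fewer samples. Same-numbered libraries come from different mice, and their deviations from the group means correlated at -0.17, 0.07 and 0.13, so the number was not taken to pair them. Of the WT libraries only replicate 3 correlated best with its own number. Of 135 recomputed log2 fold changes of the 9 genes, 134 stayed within the replicate SD of the value given, and that of Arntl after thinning did not. With 3 libraries per group, leaving 1 out can hardly exceed this SD, so for left-out libraries the count does not measure stability. Per2 fell from 0.80 to 0.43 without Ahrr-deficient replicate 2 and still counted as within it. Among RLE, upper-quartile and DESeq2 scaling, the largest shift of the median of all genes was -0.032, with upper-quartile factors. The limma-voom fit used TMM factors like the main fit, so it does not vary the scaling. No call turned its direction. Depth limits the low genes most in Ahrr-deficient replicate 1, where 3 counts are 0.844 CPM, against 0.0720 CPM in Ahrr-deficient replicate 2.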

Other observations

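Genes that feed into the clock or that it regulates in macrophages also differed between the genotypes, and are given as values. Their lists were chosen with earlier results of these data known, so counts from them are a description only. On a list of 9 genes of the cAMP and serum responses, signals known to induce Per1, 7 passed the edgeR threshold, all lower, with a median log2 fold change of -1.02, beside 19.6% of all tested genes called and 9.95% called lower. Fos had 326, 326 and 415 CPM in WT and 84.7, 59.4 and 60.0 CPM in Ahrr-deficient libraries (log2 fold change -2.48, edgeR adjusted p 0.000308). Sik1, a kinase that restrains the CREB coactivators, fell by 1.94 (edgeR adjusted p 0.000659), Nr4a1 by 1.51 (edgeR adjusted p 0.00279) and Atf3 by 1.02 (edgeR adjusted p 0.00409). These 4 calls of the 7 were kept with each library left out. The 2 genes not called were Egr1 (-0.49, edgeR adjusted p 0.349) and Creb1 (0.14, edgeR adjusted p 0.407). Egr1 spread over 118, 70.0 and 36.0 CPM within WT. Of 9 glucocorticoid genes 7 passed, 2 higher and 5 lower, beside the same 19.6%, so the list did not move one way. Dusp1 fell by 1.502 (edgeR adjusted p 0.000144), Zbtb16 by 1.97 (edgeR adjusted p 0.00711) and Tsc22d3 by 0.76 (edgeR adjusted p 0.00843), whereas Fkbp5 rose by 0.76 (edgeR adjusted p 0.00285) and Klf9 by 0.62 (edgeR adjusted p 0.00357). These 5 were kept with each library left out.

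Of 7 tested genes listed as repressed by REV-ERB proteins, 5 passed in edgeR, 1 higher and 4 lower, beside 19.6% of all tested genes, and 3 in DESeq2. Only the calls of Nfil3 and Il1b were kept in every alternative. Npas2 and Nfil3 are described above, and Nlrp3 (log2 fold change -0.29, edgeR adjusted p 0.04997) lost its call in 10 of 15 alternatives, among them each library left out except Ahrr-deficient replicate 1, where its values lay between -0.32 and -0.23. Il1b had 242, 288 and 197 CPM in WT and 132, 70.6 and 76.5 CPM in Ahrr-deficient libraries (log2 fold change -1.498, edgeR adjusted p 0.00658). Ccl2, a chemokine gene, rose by 1.93 (edgeR adjusted p 0.0197) and lost its call without WT replicate 1 (2.43), WT replicate 2 (1.99), WT replicate 3 (1.59), Ahrr-deficient replicate 2 (1.55) or Ahrr-deficient replicate 3 (1.88), and with the replicate block (1.76).

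CLOCK and ARNTL belong to the bHLH-PAS family with AhR, its repressor and ARNT. A list of family members and coactivators outside the core set had 9 tested genes. Of these, 6 passed, 3 higher and 3 lower, the latter including Ahrr itself, beside 19.6% of all tested genes. The list leaves out 2 family members counted above with the clock transcription factors. These are Npas2, called lower, and Arntl2, not called (log2 fold change 0.46, edgeR adjusted p 0.373). Ahr had 7.66, 4.92 and 3.64 CPM in WT and 10.97, 33.2 and 24.0 CPM in Ahrr-deficient libraries (log2 fold change 2.00, edgeR adjusted p 0.00709), and Arnt2 rose by 2.73 (edgeR adjusted p 0.00409) from no more than 0.684 CPM. Arnt2 rested on 15, 2 and 3 counts in WT replicates 1, 2 and 3 and on 6 in Ahrr-deficient replicate 1. The floor of detection is 3 counts, so its WT level lies near that floor. Hif1a rose by 0.46 (edgeR adjusted p 0.0162) and lost its call without WT replicate 1 (0.46, adjusted p 0.0749) or WT replicate 2 (0.40, adjusted p 0.0668). Epas1 fell by 0.47 (edgeR adjusted p 0.0343), a call lost without WT replicate 1 (-0.46), WT replicate 2 (-0.39), Ahrr-deficient replicate 2 (-0.42) or Ahrr-deficient replicate 3 (-0.44), and with the replicate block (-0.47). Ncoa1 fell by 0.39 (edgeR adjusted p 0.0359), a call lost without WT replicate 1 (-0.40), WT replicate 2 (-0.37), WT replicate 3 (-0.41), Ahrr-deficient replicate 2 (-0.31) or Ahrr-deficient replicate 3 (-0.36), with the replicate block (-0.39) and after thinning (-0.35). Arnt differed by -0.05 on the log2 scale (edgeR adjusted p 0.736) and did not pass.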
